A study of Mus musculus with 10 samples.

Results

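The 51 genes described here carry out DNA replication or mark entry into S phase, and they were taken by symbol from a named list of replication and E2F-driven genes. The list is a set of names with no threshold on a measured value, but it was drawn up with earlier results of these data known. All 51 were found among the 55401 genes of the counts table. They were placed in 6 steps, namely licensing (10 genes), helicase activation (6), fork (19), nucleotide supply (5), chromatin assembly (5), and E2F and cyclin E (6).

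Replication origins are licensed in G1, when the origin recognition complex, Cdc6 and Cdt1 load the MCM helicase onto DNA. In S phase the helicase is activated by Cdc45 and the GINS complex, polymerases copy the strands behind it, and new nucleosomes are assembled on the copies. Most of these genes are transcribed under E2F factors, so their RNA is commonly read as a measure of how many cells are cycling.

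RNA was sequenced from 10 subcutaneous tumors of obese male C57BL/6J mice, which were between 7 and 17 weeks old when the tumor cells were injected. All tumors were grown from KPN1.1, a single mouse lung adenocarcinoma line with a deletable Trp53 and an inducible neoantigen, so that the tumor cells share these alleles in both groups. Of the mice, 5 were given the GLP-1 receptor agonist liraglutide by daily intraperitoneal injection of 0.2 μg per g of body weight, and 5 were given PBS vehicle. Tumors were taken between days 19 and 22, or at a volume of 2000 mm3, and a frozen fragment of each gave total RNA from tumor and host cells together. The tumor numbers 1 to 5 name separate mice in each group.

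Total counts were between 9927942 and 14480593 per tumor, and all 51 genes passed the filter on low counts. Values are CPM, counts relative to a library size scaled by the trimmed mean of M values (TMM), and 3 counts correspond to 0.207 to 0.314 CPM, a floor that covers counting error only. The keratins of the epithelial line were abundant (Krt8, 1631 to 3294 CPM), and the lung lineage factor Nkx2-1 was read at 17.7 to 132 CPM. Sftpc, the surfactant gene of alveolar type II cells, reached at most 5.95 CPM and had no count in 1 tumor. In such bulk samples fewer cycling cells and less replication RNA per cell cannot be told apart.

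The first question was whether liraglutide changed these genes. None was called by edgeR's quasi-likelihood test, for which a call needed a log2 fold change beyond 0.58 in either direction and, after Benjamini-Hochberg adjustment, p under 0.05. The same thresholds called 0% of the 17464 genes tested. The smallest adjusted p of a member was 0.482, for Rfc4 and Ccne2 by the same test. At an unadjusted p under 0.05 there were 4 members, all with lower values under liraglutide, which is 7.84% of the list. Of all tested genes, 5.62% were lower and 9.59% differed in either direction at that threshold. DESeq2 called 21 of all tested genes (0.12%) and 0 members, with 4 members at an unadjusted p under 0.05 (7.84%, where 6.02% of all genes were lower). Limma-voom called 0 genes, with 3 members at that p (5.88%, where 5.09% of all genes were lower).

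Log2 fold changes (liraglutide over vehicle) were small and mostly negative. They were below 0 for 48 of the 51 members (94.1%), against 52.6% of all tested genes, and their median was -0.21, against -0.02 over all tested genes. The exceptions were the ligase Lig1 (0.08), the largest origin recognition subunit Orc1 (0.03) and the RPA subunit Rpa2 (0.03). By step, the median was -0.17 in licensing, -0.19 in helicase activation, -0.23 at the fork, -0.24 in nucleotide supply, -0.21 in chromatin assembly and -0.37 among the E2F and cyclin E genes. The difference was under the spread between tumors of a group (SD on the log2 scale) for 42 of the 51 (82.4%), and for 75.2% of all tested genes. No member had groups that did not overlap. Of the 17464 genes tested, 261 had such groups in either direction, and 0.888% were lower in every liraglutide tumor than in any vehicle tumor. In a list of 51 genes, 0 is near that share.

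**Figure D1:**
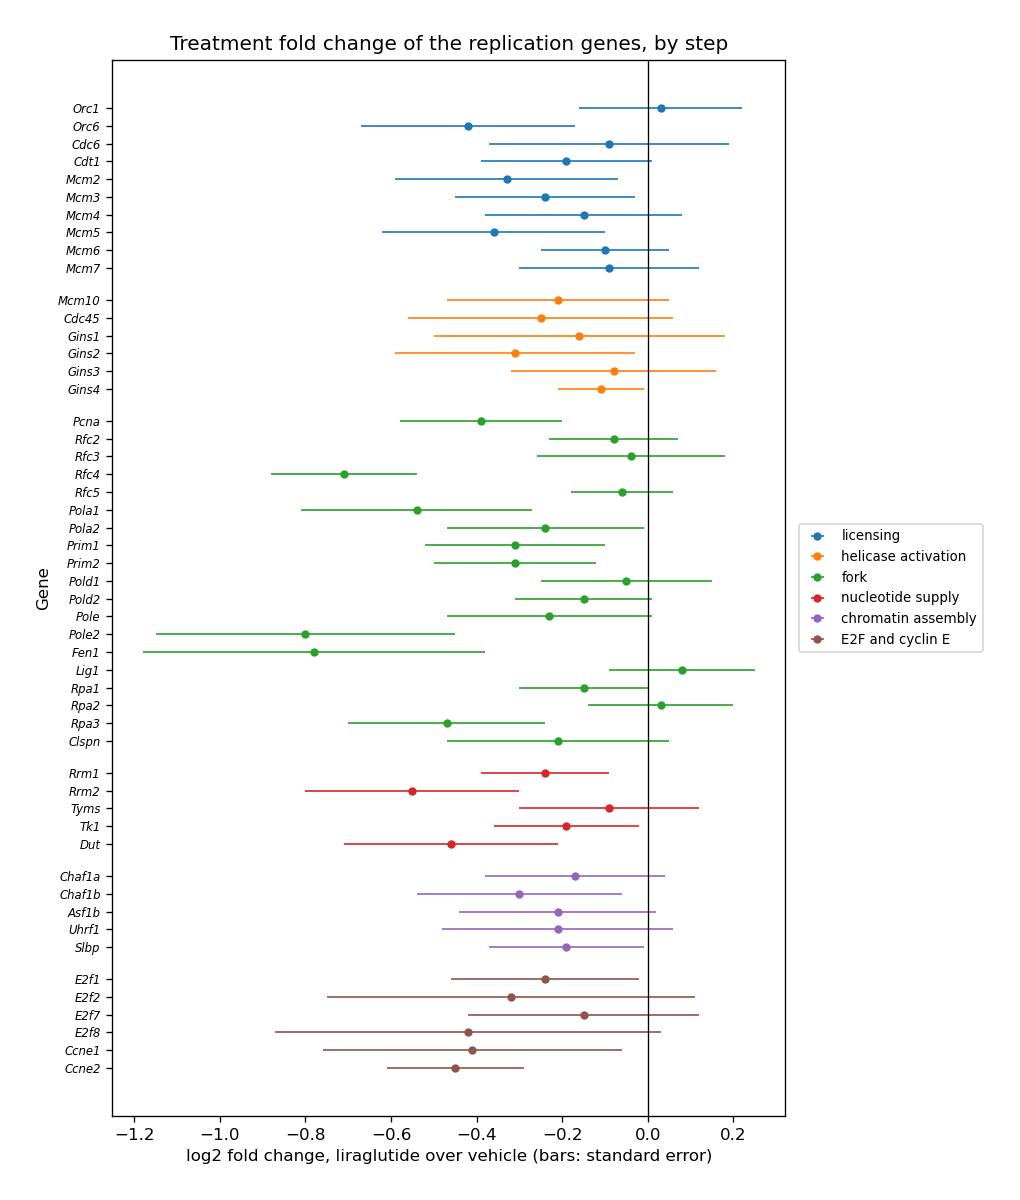
Log2 fold change (x axis, liraglutide over vehicle, with its standard error) of each of the 51 genes (y axis), colored by step. Apart from Lig1, Orc1 and Rpa2 the points lie left of 0, and Rfc4 (-0.71, standard error 0.17) has a short error bar far from 0, whereas Pole2 (-0.80) and Fen1 (-0.78) have long ones.

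These counts depended on single tumors. Without vehicle tumor 4 there were 15 members at an unadjusted p under 0.05 (29.4%, all lower with liraglutide), where 8.06% of all genes tested were lower at that threshold. Without liraglutide tumor 2 there were 10 (19.6%, against 7.95%), and without vehicle tumor 5 there were 8 (15.7%, against 7.44%). Leaving out liraglutide tumor 1, 3, 4 or 5, or vehicle tumor 2 or 3, left 2 (3.92%), against 2.99% to 4.78% of all genes, and leaving out vehicle tumor 1 left 3 (5.88%, against 4.07%). The median log2 fold change was -0.37 without vehicle tumor 4 and -0.14 without vehicle tumor 1 or without vehicle tumor 3. The number of members below 0 stayed between 40, without vehicle tumor 3, and 50, without vehicle tumor 4 or liraglutide tumor 2. The 10 fits with a tumor left out called 0 genes of the whole table, the members included.

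Tumors of the same group differed in replication genes. For each gene, log2 CPM was taken relative to its mean over the 10 tumors, and the median over the 51 genes gives the level of a tumor. It was 0.42, 0.39, 0.40, -0.46 and -0.16 in vehicle tumors 1 to 5. In liraglutide tumors 1 to 5 it was -0.11, 0.32, -0.28, -0.19 and -0.23. Vehicle tumors 1, 2 and 3 and liraglutide tumor 2 were thus high, vehicle tumor 4 was the lowest of all, and the other 5 lay between. Vehicle tumors averaged 0.12 ± 0.40 and liraglutide tumors -0.10 ± 0.24 (SD, n = 5 each), so the groups overlapped widely.

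The genes moved across tumors nearly as a block. In vehicle tumors 1, 2 and 3, between 47 and 48 of the 51 genes were above their own mean, and in liraglutide tumor 2 there were 47. Vehicle tumor 4 had 3 above the mean and was the lowest tumor for 31 genes. For 35 genes (68.6%) the 4 highest tumors were exactly vehicle 1, 2 and 3 and liraglutide 2, which held for 8.7% of all tested genes. These 4 tumors were picked after the values were seen, so the share is a description. A further 10 genes had 3 of these tumors among their 4 highest. The 6 with fewer were Orc1, Gins3, Gins4, Prim2, Rpa2 and E2f2. Summed over the 51 genes, the level was 2460, 2488, 2468, 1343 and 1813 CPM in vehicle tumors 1 to 5 and 1747, 2300, 1558, 1659 and 1597 CPM in liraglutide tumors 1 to 5.

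**Figure D2:**
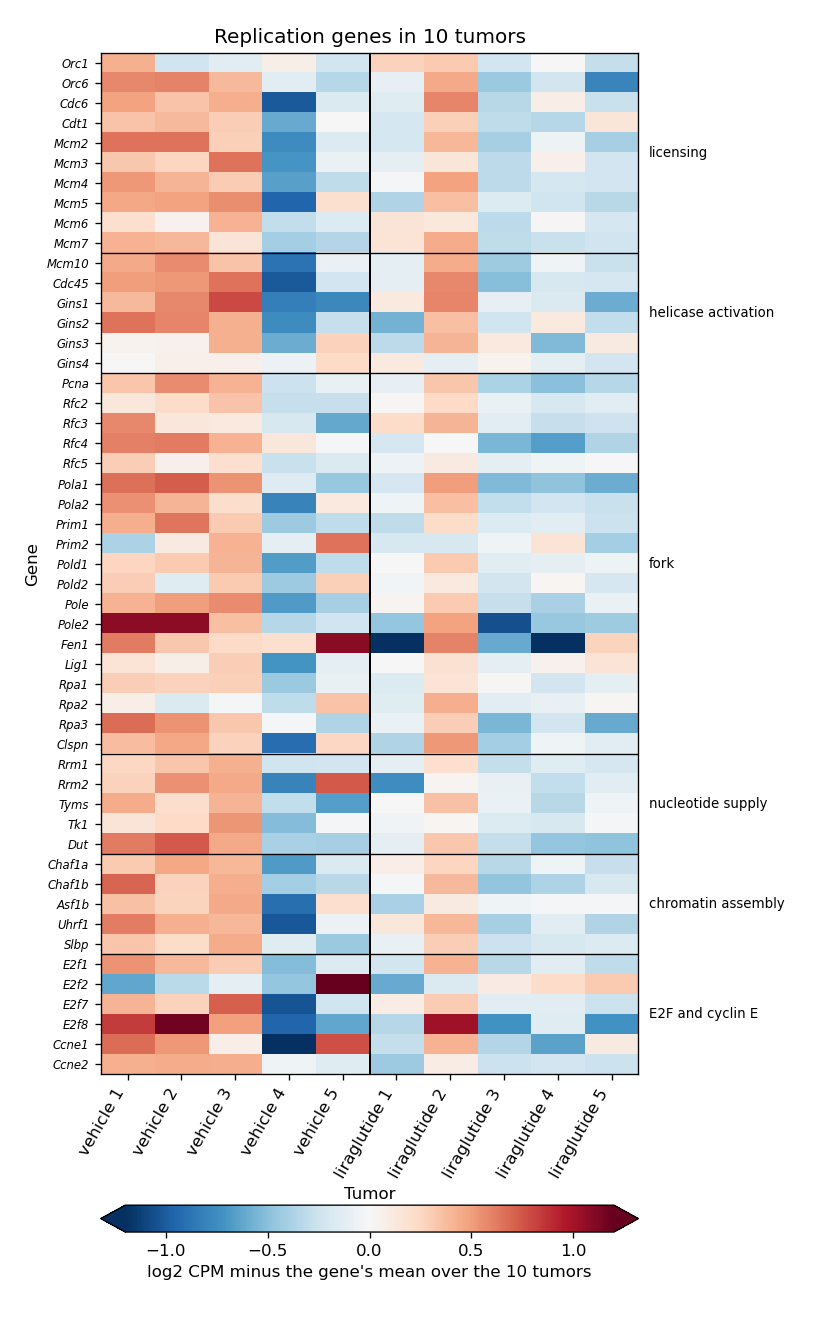
Log2 CPM of the 51 genes (rows, by step) in the 10 tumors (columns) relative to each gene's mean, with red above and blue below the mean and colors saturating at the ends of the scale. Vehicle tumors 1, 2 and 3 and liraglutide tumor 2 are red in almost every row, vehicle tumor 4 is blue, and Gins4 is pale throughout.

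Among vehicle tumors the highest value of a member was a median of 2.14 times the lowest (range 1.23 to 4.91 over the genes), and among liraglutide tumors 1.63 times (1.16 to 4.32). The SD between tumors was larger with vehicle than with liraglutide for 46 members (90.2%), against 70.7% of all tested genes. Its median on the log2 scale was 0.47 with vehicle and 0.29 with liraglutide for the members, and 0.35 and 0.27 for all tested genes. This difference in spread was not tested.

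**Figure D3:**
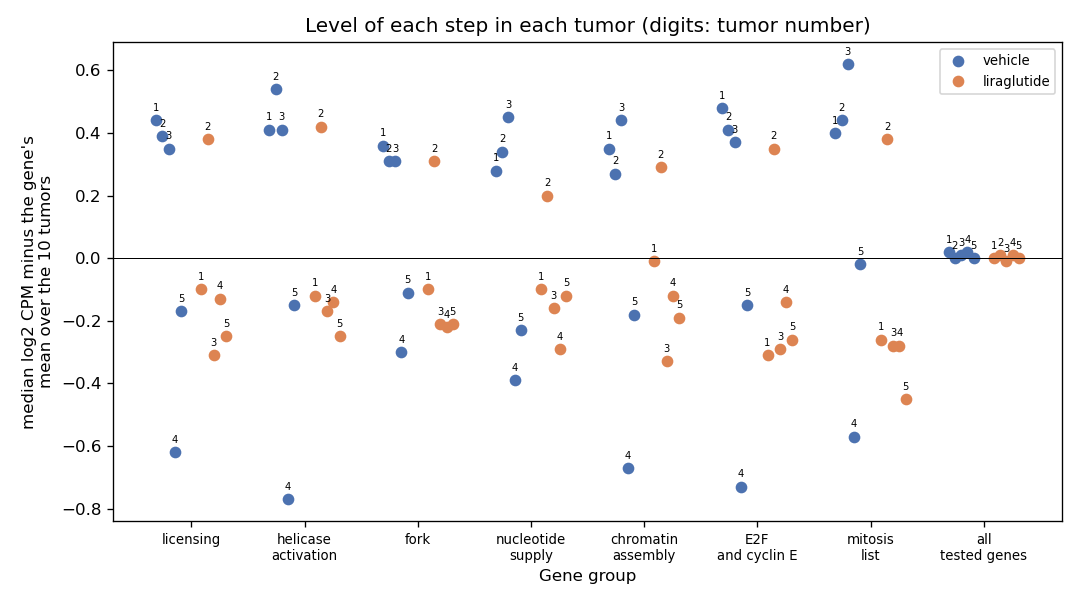
Median log2 CPM relative to each gene's mean (y axis) for the genes of each step, for 20 mitosis genes and for all tested genes (x axis), 1 point per tumor, in blue for vehicle and orange for liraglutide. The order of the tumors is much the same in every step, with vehicle tumor 4 lowest. The medians of all tested genes stay between -0.01 and 0.02, where TMM scaling and the centering of each gene hold them, so they are no contrast.

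Markers of other cells also differed between the tumors. The summed level of 15 leukocyte markers was 113, 105, 149.9, 194 and 179 CPM in vehicle tumors 1 to 5 and 121, 127, 231, 192 and 206 CPM in liraglutide tumors 1 to 5, with at most 1 marker without a count in a tumor. The tumors with the most replication RNA were thus among those with little leukocyte RNA, although liraglutide tumor 1, with a low leukocyte sum, had a level below the mean. Collagen and other fibroblast markers (8 genes) summed to 1446 to 3533 CPM with vehicle and 1922 to 3606 CPM with liraglutide. Both vehicle tumors 4 and 5, at 1446 and 1454 CPM, stood lowest in that list, as they did among vehicle tumors in replication genes. Liraglutide tumor 2, high in replication genes, came next at 1922 CPM, and liraglutide tumor 1, below the mean, was highest at 3606 CPM. The keratinocyte list (6 genes) summed to 9.05 to 20.4 CPM with vehicle, to 215 CPM in liraglutide tumor 2 and to 7.17 to 79.6 CPM in the other liraglutide tumors. Its 6 log2 fold changes were above 0 (median 2.15), with 5 at an unadjusted p under 0.05 and 0 called by edgeR's quasi-likelihood test. Epithelial and lung adenocarcinoma markers summed to 4812 to 10435 CPM with vehicle and 5171 to 7698 CPM with liraglutide. Their list (11 genes) includes Lyz2, which is not limited to epithelium. Sums for 6 endothelial markers were 101 to 164 and 103 to 130.4 CPM, for 6 skeletal muscle markers 37.5 to 249 and 83.3 to 339 CPM, and for 5 adipocyte markers 15.3 to 83.1 and 18.3 to 47.5 CPM, with vehicle and liraglutide respectively. Log2 fold changes were above 0 for 6 of 6 muscle markers (median 0.83) and 11 of 13 leukocyte markers tested (median 0.26), and below 0 for 3 of 3 adipocyte markers tested (median -0.71), with 0 called in each. The part of any of these cells in the replication values was not tested.

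Licensing genes gave no member at an unadjusted p under 0.05. Orc6, the smallest subunit of the origin recognition complex, had the smallest p of the step. In vehicle tumors 1 to 5 it stood at 43.0, 43.7, 37.7, 26.4 and 22.8 CPM, and it stood at 27.0, 39.6, 21.2, 24.8 and 16.7 CPM in liraglutide tumors 1 to 5. Vehicle tumors 1, 2 and 3 and liraglutide tumor 2 were high, and 2 liraglutide tumors lay below every vehicle tumor. The means were 34.7 ± 9.62 and 25.9 ± 8.62 CPM (SD, n = 5 each), with a log2 fold change of -0.42 (standard error 0.25), an adjusted p of 0.596 by edgeR's quasi-likelihood test and p = 0.167 by a two-sided exact permutation test.

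Mcm6, a subunit of the MCM helicase, was the most abundant licensing gene per length. Its values were 172, 155, 199.7, 122 and 133 CPM with vehicle and 166, 163, 120.2, 151 and 130.1 CPM with liraglutide, tumors 1 to 5 in each. Vehicle tumors 1 and 3 lay above every liraglutide tumor, the lowest values of both groups were close, and the means were 156 ± 31.1 and 146 ± 20.1 CPM (SD, n = 5 each). Its log2 fold change was -0.10 (standard error 0.15), and 0.01 without vehicle tumor 3.

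The 6 MCM subunits form 1 ring in equal numbers. Their RNA per length of exon and library size (RPKM) ranged from 6.28 for Mcm5 to 27.8 for Mcm6, 4.43 times as much. Length covers every annotated exon base of a gene and not a single transcript. Levels per length, here and in the other steps, thus depend on the annotation as well. Log2 fold changes ranged from -0.36 (Mcm5) to -0.09 (Mcm7). Mcm5 stood at 21.1 CPM in vehicle tumor 4 and at 46.7 to 60.1 CPM in the other vehicle tumors. The loaders Cdc6 (-0.09) and Cdt1 (-0.19) followed the same tumors, and Cdc6 was highest in liraglutide tumor 2 (22.9 CPM) and lowest in vehicle tumor 4 (7.61 CPM). Orc1 shared that order only in part, with vehicle tumor 1 (10.6 CPM) and liraglutide tumor 2 (9.79 CPM) highest, but with liraglutide tumor 1 (9.59 CPM) and vehicle tumor 4 (8.28 CPM) above vehicle tumors 2 (6.69 CPM) and 3 (7.24 CPM).

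The promoters were searched for the letters that E2F factors bind. The list was drawn up to hold E2F-driven genes, so a high share of such letters is part of how it was chosen and no finding about these tumors. RefSeq windows of 250 bases before to 50 bases after a start (GRCm38.p6) were at hand for 43 of the 51 genes. One of the 8-base words TTTCCCGC, TTTCGCGC, TTTGCCGC and TTTGGCGC, on either strand, was found in 17 of the 43 (39.5%), against 2.6% of 27025 genes with a window and 4.49% of the 11003 of these tested in the tumors. Of the lists fixed beside the members, the share was 33.3% for other replication factors (8 of 24), 33.3% for RB, cyclin D and CDK genes (6 of 18), 16.7% for fork protection and checkpoint genes (2 of 12), 5.56% for mitosis genes (1 of 18) and 5.26% for nucleotide metabolism (1 of 19). Among the members, licensing genes held it most often, 7 of 9, and nucleotide supply genes in 0 of 5. The windows of Orc1, Cdc6, Mcm5, Mcm6 and Mcm7 show the licensing matches that lie before the start, whereas those of Cdt1 and Mcm3 do not. Gins3 stands beside them since it held a match without following the tumor order of the rest, as Orc1 and E2f2 also did. Each line gives a stretch of 60 bases that lies before the start, on the gene's strand, 5′ to 3′, with the matched letters in capitals and the distance of the first matched base from the start.
Orc1, chr4:108579394-108579453, plus strand, 27 bases before: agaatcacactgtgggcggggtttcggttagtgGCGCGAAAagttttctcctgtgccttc
Cdc6, chr11:98907987-98908046, plus strand, 138 bases before: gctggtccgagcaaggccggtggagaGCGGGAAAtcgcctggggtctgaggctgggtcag
Mcm5, chr8:75109330-75109389, plus strand, 153 bases before: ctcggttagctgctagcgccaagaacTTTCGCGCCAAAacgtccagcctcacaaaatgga
Mcm6, farther site, chr1:128359782-128359841, minus strand, 110 bases before: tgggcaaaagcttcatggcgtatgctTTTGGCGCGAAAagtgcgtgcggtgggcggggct
Mcm6, nearer site, chr1:128359719-128359778, minus strand, 47 bases before: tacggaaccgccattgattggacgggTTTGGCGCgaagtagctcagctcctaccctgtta
Mcm7, chr5:138172015-138172074, minus strand, 165 bases before: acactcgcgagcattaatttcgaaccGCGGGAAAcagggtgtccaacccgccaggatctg
Gins3, chr8:95633492-95633551, plus strand, 41 bases before: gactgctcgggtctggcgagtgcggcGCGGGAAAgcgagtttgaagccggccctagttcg

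Mcm5 and the farther Mcm6 site each hold a pair of words that overlap, read on opposite strands. Matches before the start were also found in E2f7, Pola1, Rfc3 and Uhrf1, so that 10 genes had one there. The median log2 fold change was -0.15 for the 17 genes with a match and -0.24 for the 26 without. The CCAAT word (or ATTGG) was found in 65.1% of the 43 genes, in 41.1% of all genes and in 42.6% of those tested in the tumors. The cell cycle homology word TTTGAA (or TTCAAA), known from genes of mitosis, was found in 18.6% of the members, in 20.2% of all genes, in 15.1% of those tested in the tumors and in 13 of 18 mitosis genes (72.2%), of which 1 held an E2F word. A match is a run of letters and no evidence of binding.

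Of the helicase activation genes, none was at an unadjusted p under 0.05. Gins2, a GINS subunit, was read at 14.2, 13.6, 12.2, 5.36 and 7.49 CPM in vehicle tumors 1 to 5 and at 6.13, 11.6, 7.66, 9.82 and 7.37 CPM in liraglutide tumors 1 to 5. Vehicle tumor 4 was below all liraglutide tumors, and vehicle tumors 1, 2 and 3 were above them. The means were 10.6 ± 3.93 and 8.52 ± 2.17 CPM (SD, n = 5 each), with a log2 fold change of -0.31 (standard error 0.28) and an adjusted p of 0.717 by edgeR's quasi-likelihood test. Exons of Gse1 (65.9 CPM) lie opposite 67.3% of its exon bases, and the strand setting of the counting is not given, so the reads of the pair cannot be told apart. Of the 51 genes, 12 share at least 10% of their exon bases with another gene. Among them are Pcna (20.8%, opposite AV099323 at 0.642 CPM) and E2f8 (20.2%, opposite Gm2788 at 2.53 CPM).

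Gins4, another GINS subunit and the most abundant gene of the step per length, varied least of the 51. It was read at 27.7, 29.0, 29.0, 26.5 and 32.5 CPM with vehicle and at 30.1, 25.7, 28.6, 25.8 and 23.7 CPM with liraglutide, tumors 1 to 5 in each. Its highest tumor was vehicle 5, and liraglutide tumor 2, high for most members, was its second lowest. Its SD between tumors of a group was 0.12 on the log2 scale, against a median of 0.39 over the members, and its log2 fold change was -0.11 (standard error 0.10). Within GINS, Gins1 spanned 3.06 times between its highest and lowest tumor, Gins2 2.66 times, Gins3 2.02 times and Gins4 1.37 times. Cdc45, the partner of GINS in the active helicase, stood at 8.70 CPM in vehicle tumor 4 and at 14.9 to 27.4 CPM in the other vehicle tumors.

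At the fork, 2 of 19 genes were at an unadjusted p under 0.05, Rfc4 and Pole2 (10.5%, against 9.59% of all tested genes). Rfc4 is a small subunit of replication factor C, which loads the PCNA clamp onto DNA. Vehicle tumors 1 to 5 had 24.0, 24.3, 21.0, 17.3 and 15.6 CPM, and liraglutide tumors 1 to 5 had 13.7, 15.8, 10.8, 10 and 12.3 CPM. Liraglutide tumor 2 alone lay above the lowest vehicle tumor. The means were 20.5 ± 3.91 and 12.5 ± 2.30 CPM (SD, n = 5 each), a log2 fold change of -0.71 (standard error 0.17). Its adjusted p was 0.482 by edgeR's quasi-likelihood test and 0.0614 by DESeq2, its two-sided exact permutation p was 0.0159, and the smallest p that 5 against 5 allow is 0.00794.

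For the other small subunits, log2 fold changes were -0.08 (standard error 0.15) for Rfc2, -0.04 (0.22) for Rfc3 and -0.06 (0.12) for Rfc5. Taken as log2 CPM of Rfc4 minus the mean of the other three, the value was -0.24, -0.03, -0.32, -0.14 and -0.17 in vehicle tumors 1 to 5. In liraglutide tumors 1 to 5 it was -0.76, -0.76, -0.94, -0.98 and -0.74. The groups did not overlap on this ratio, with means of -0.18 ± 0.11 and -0.84 ± 0.11 (SD, n = 5 each) and a difference of -0.65. This ratio was formed after the values of Rfc4 were seen and has no test. The groups overlapped on each of the 4 other partner ratios computed, Pole2 over Pole (3 of 5 liraglutide tumors below all of vehicle), Rrm2 over Rrm1 (1 of 5), Pola1 over Pola2 (0) and Ccne2 over Ccne1 (0).

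Rfc4 shares 368 of its 2224 exon bases (16.5%) with the opposite strand of Eif4a2, an abundant translation initiation factor. Eif4a2 was read at 351 to 452 CPM with vehicle and at 316 to 386 CPM with liraglutide, which is -0.23 on the log2 scale with a standard error of 0.09 (edgeR's quasi-likelihood test, adjusted p = 0.506). The library kit keeps the strand, but how the counting used it is not given, so the reads of this overlap cannot be told apart. Eif4a2 was named only for this overlap. The same holds for the subunits it was set against, since exons of Wsb2 (57.6 CPM) lie opposite 41.4% of the exon bases of Rfc5, and exons of Lat2 (3.77 CPM) lie opposite 24.3% of those of Rfc2.

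**Figure D4:**
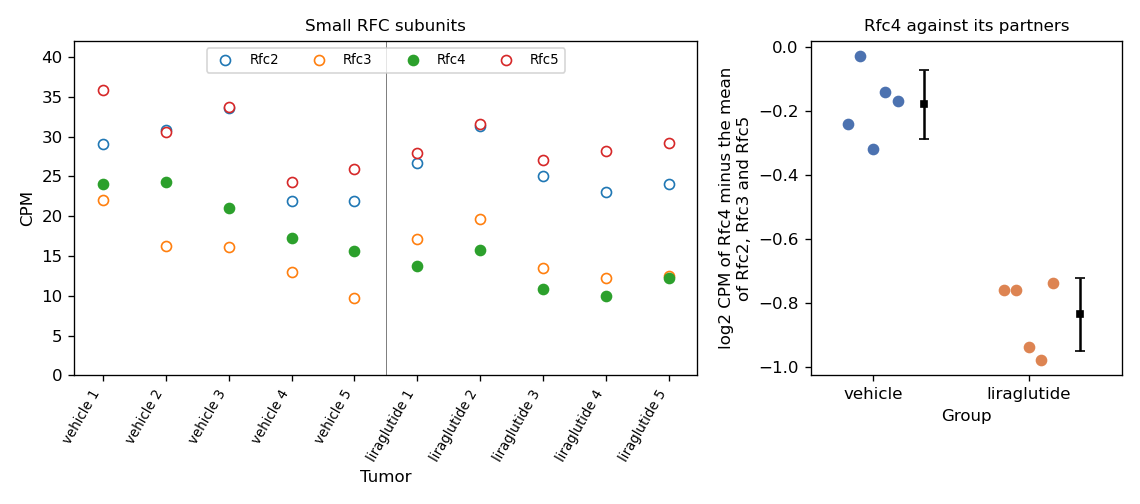
Left, CPM of the 4 small RFC subunits (y axis) in the 10 tumors (x axis), with Rfc4 filled. Right, log2 CPM of Rfc4 minus the mean of Rfc2, Rfc3 and Rfc5, 1 point per tumor, with the mean (square) and SD (bar) of each group. All 5 liraglutide tumors lie between -0.98 and -0.74, below the vehicle tumors, which lie between -0.32 and -0.03.

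Pcna, the sliding clamp that RFC loads, was the most abundant fork gene per length. Its values were 107, 126, 113, 71.1 and 79.9 CPM in vehicle tumors 1 to 5 and 79.2, 107, 65.4, 60.1 and 67.1 CPM in liraglutide tumors 1 to 5. Liraglutide tumors 3, 4 and 5 lay below every vehicle tumor, and liraglutide tumor 2 was level with vehicle tumor 1. The means were 99.5 ± 23.0 and 75.7 ± 18.7 CPM (SD, n = 5 each), with a log2 fold change of -0.39 (standard error 0.19), an adjusted p of 0.546 by edgeR's quasi-likelihood test and p = 0.0794 by a two-sided exact permutation test. Processed copies named Pcna-ps1 and Pcna-ps2 exist in the annotation, and how reads that map to several places were counted is not given.

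Pole2, the second subunit of the leading strand polymerase epsilon, was also at an unadjusted p under 0.05. It was read at 19.8, 19.8, 12.1, 7.45 and 7.98 CPM with vehicle and at 6.82, 13.2, 4.55, 6.90 and 7.0 CPM with liraglutide, tumors 1 to 5 in each. Apart from liraglutide tumor 2, the liraglutide tumors lay below the lowest vehicle tumor (7.45 CPM). The margin was small for those at 6.82 to 7.0 CPM and larger for the lowest liraglutide value, 4.55 CPM. The fold change on the log2 scale was -0.80 with a standard error of 0.35, edgeR's quasi-likelihood test gave an adjusted p of 0.515, and the two-sided exact permutation p was 0.0873. The catalytic subunit Pole had a log2 fold change of -0.23 (standard error 0.24).

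Polymerase alpha and primase, which lay down primers, had log2 fold changes of -0.54 (Pola1), -0.24 (Pola2), -0.31 (Prim1) and -0.31 (Prim2). Pola1 was read at 57.7 to 131 CPM with vehicle and at 112 CPM in liraglutide tumor 2, but at 52.3 to 68.7 CPM in the other liraglutide tumors. Prim2, unlike Prim1, was highest in vehicle tumor 5 (67.2 CPM). The subunits of the lagging strand polymerase delta, Pold1 (-0.05) and Pold2 (-0.15), and the ligase Lig1 (0.08) had small fold changes. Of the single-strand binding complex RPA, Rpa1 had -0.15, Rpa2 0.03 and Rpa3 -0.47. Clspn, a fork and checkpoint mediator, had -0.21. Fen1, the flap endonuclease, was barely detected with 3 to 21 counts per tumor (means 1.17 ± 0.330 and 0.670 ± 0.409 CPM, SD, n = 5 each), and 59% of its exon bases lie opposite the noncoding gene Gm10143.

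In nucleotide supply, 43.3% of the exon bases of Rrm2 lie opposite the noncoding gene Gm59512. Rrm2 was both the most abundant gene of the step per length and the gene with the smallest p. It encodes the S phase subunit of ribonucleotide reductase, which makes deoxynucleotides. It was read at 159, 192, 179, 75 and 218 CPM in vehicle tumors 1 to 5 and at 78.0, 134, 123, 107 and 120.1 CPM in liraglutide tumors 1 to 5. Vehicle tumor 4 was the lowest of all, and the other 4 vehicle tumors lay above every liraglutide tumor. The means were 165 ± 54.5 and 112 ± 21.4 CPM (SD, n = 5 each), with a log2 fold change of -0.55 (standard error 0.25), an adjusted p of 0.519 by edgeR's quasi-likelihood test and p = 0.159 by a two-sided exact permutation test.

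Rrm1, the large subunit of the same enzyme, had a log2 fold change of -0.24 (standard error 0.15) and a level per length of 9.45 RPKM, against 41.7 RPKM for Rrm2. Rrm2 exceeded its partner most in vehicle tumor 5, where the log2 ratio of their CPM was 1.22, against -0.30 to 0.47 in the other vehicle tumors and -0.37 to 0.45 in the liraglutide tumors. The remaining genes of the step had log2 fold changes of -0.46 (Dut, which removes dUTP), -0.19 (thymidine kinase, Tk1) and -0.09 (thymidylate synthase, Tyms). Tk1 was nearly constant with liraglutide, at 35.4 to 41.1 CPM, and ranged from 28.3 to 58.6 CPM with vehicle.

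No chromatin assembly gene was at an unadjusted p under 0.05. Chaf1b, a subunit of the histone chaperone CAF-1, was read at 25.6, 19.1, 21.4, 11.9 and 12.5 CPM in vehicle tumors 1 to 5 and at 15.6, 20.7, 11.4, 12.2 and 13.8 CPM in liraglutide tumors 1 to 5. Its groups overlapped over most of their range, and they differed by -0.30 on the log2 scale with a standard error of 0.24 (edgeR's quasi-likelihood test, adjusted p = 0.687). Uhrf1, which brings maintenance DNA methylation to new strands, was the most abundant gene of the step per length. It was read at 121, 106, 104, 39.2 and 75.4 CPM with vehicle and at 86.7, 104, 60.2, 72.6 and 61.7 CPM with liraglutide, tumors 1 to 5 in each. Vehicle tumor 4 stood lowest and vehicle tumor 1 highest, 3.08 times apart, whereas the log2 fold change between the groups was -0.21 (standard error 0.27). The others had log2 fold changes of -0.17 (Chaf1a), -0.21 (the histone chaperone Asf1b) and -0.19 (Slbp, which binds histone mRNA).

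Among the 6 E2F and cyclin E genes, Ccne2 alone was at an unadjusted p under 0.05 (16.7%, against 9.59% of all tested genes). It encodes a cyclin E, which activates CDK2 at the start of S phase. Vehicle tumors 1 to 5 had 26, 26.4, 26.2, 18.7 and 17.5 CPM, and liraglutide tumors 1 to 5 had 14.3, 20.7, 16.2, 16.5 and 16.2 CPM. Only liraglutide tumor 2 was above the lowest vehicle tumor. The means were 23.0 ± 4.45 and 16.8 ± 2.39 CPM (SD, n = 5 each), with a log2 fold change of -0.45 (standard error 0.16), an adjusted p of 0.482 by edgeR's quasi-likelihood test and p = 0.0476 by a two-sided exact permutation test. Exons of Ints8, opposite in strand, cover 15.2% of its exon bases, and Ints8 had a log2 fold change of -0.07 (standard error 0.10).

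Rfc4 and Ccne2 were the members with a permutation p under 0.05, and each kept an unadjusted p under 0.05 in all 20 alternative fits. So small a count is no more than a threshold of 0.05 passes by chance in a list of this length. The alternative fits reuse the same tumors and are not independent of each other. No share of all tested genes is given for either count. Ccne1, the other cyclin E, was scarce (1.51 to 6.27 CPM with vehicle, 2.36 to 4.90 CPM with liraglutide) and had a log2 fold change of -0.41 (standard error 0.35). It was highest in vehicle tumor 5, as were Rrm2, Prim2, Fen1, Gins4 and E2f2, and these were the 6 members whose highest value fell in that tumor.

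E2f8, a repressor of E2F targets and itself an E2F target, was the most abundant gene of its group per length. It was read at 74.7, 92.9, 58.6, 21.5 and 27.1 CPM in vehicle tumors 1 to 5 and at 32.9, 84.3, 25.2, 37.6 and 25.1 CPM in liraglutide tumors 1 to 5. The high and low tumors were the same as for the list as a whole but farther apart, 4.32 times from lowest to highest. The groups differed by -0.42 on the log2 scale with a standard error of 0.45 (edgeR's quasi-likelihood test, adjusted p = 0.755). E2f7, its close relative, had -0.15 and the activator E2f1 -0.24. The activator E2f2 was read at 36.3 CPM in vehicle tumor 5 and 7.39 to 14.2 CPM in the other 9, and its log2 fold change of -0.32 (standard error 0.43) was 0.39 without that tumor.

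**Figure D5:**
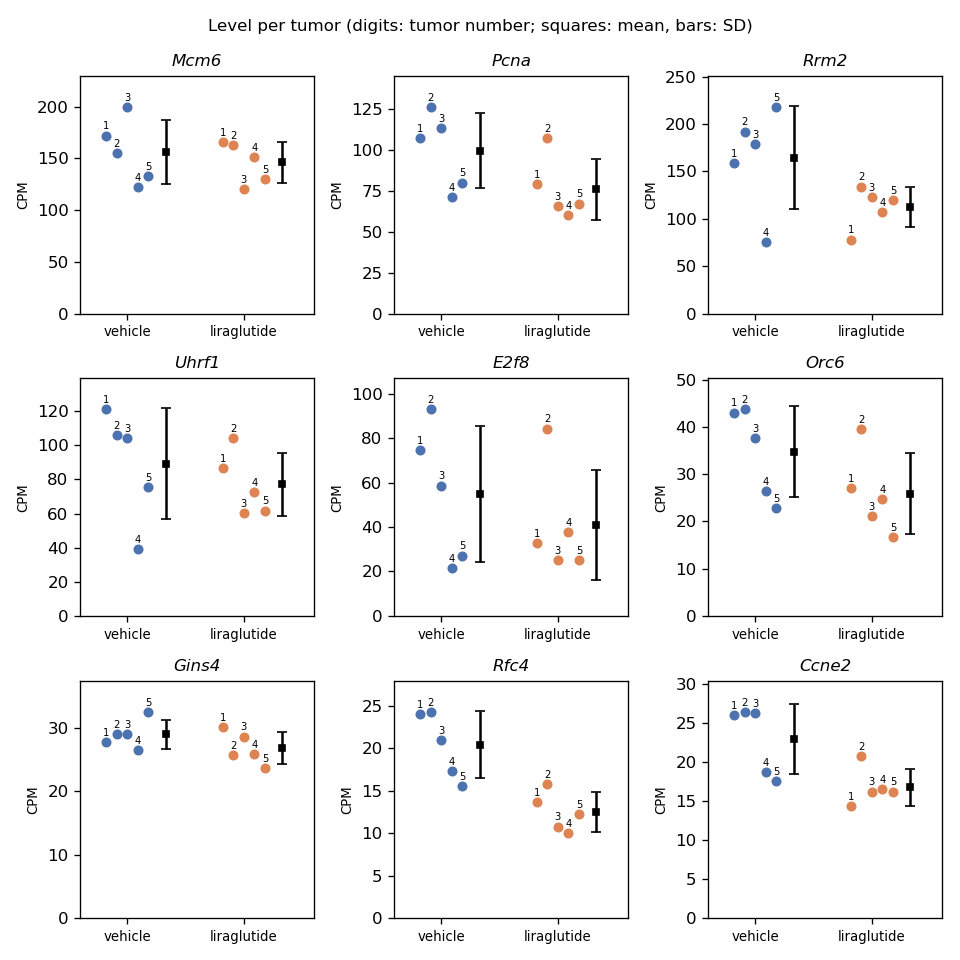
CPM (y axis) of 9 members in each tumor (points with the tumor number) for vehicle and liraglutide (x axis), with the mean (square) and SD (bar) of each group. Vehicle tumors 1, 2 and 3 and liraglutide tumor 2 are high in most panels, Gins4 is flat, and Rfc4 and Ccne2 have only liraglutide tumor 2 above the lowest vehicle tumor.

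Related genes outside the list were read the same way, and edgeR's quasi-likelihood test called 0 in each group. Of 28 other replication factors tested, 26 had log2 fold changes below 0 (92.9%, median -0.22) and 3 were at an unadjusted p under 0.05 (10.7%). Over all tested genes, 52.6% were below 0 and 9.59% were at that p, shares to set beside each list below. The origin recognition subunit Orc3 had -0.28 (standard error 0.10, adjusted p = 0.482) and Orc4 -0.45 (0.18, adjusted p = 0.503). The 17 genes of fork protection and the S phase checkpoint had 14 below 0 (82.4%, median -0.20). At an unadjusted p under 0.05 there were 2 (11.8%). These were the checkpoint kinases Atr, at -0.45 (standard error 0.12, adjusted p = 0.482) with 4 of the 5 liraglutide values under the lowest vehicle value, and Chek1, at -0.49 (0.19, adjusted p = 0.50).

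The 25 genes of the RB pathway, cyclin D and CDKs had 12 below 0 and 13 above (median 0.02), with 3 at an unadjusted p under 0.05. E2f5 had -0.34 (standard error 0.12, adjusted p = 0.482) and the E2F partner Tfdp2 0.39 (0.16, adjusted p = 0.510). Of 19 further genes of nucleotide metabolism, 13 were below 0 (median -0.10) and 0 were at an unadjusted p under 0.05, and the lowest p were those of Impdh1 (-0.56) and Dctd (-0.43). The difference between these lists was not tested.

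The 20 mitosis genes all had log2 fold changes below 0 (median -0.39), with Ccnb1 at -0.47 (standard error 0.18, adjusted p = 0.50 by edgeR's quasi-likelihood test) and Cenpf at -0.41 (0.19, adjusted p = 0.521). Their level per tumor, as median log2 CPM relative to the mean, was 0.40, 0.44, 0.62, -0.57 and -0.02 in vehicle tumors 1 to 5 and -0.26, 0.38, -0.28, -0.28 and -0.45 in liraglutide tumors 1 to 5. Vehicle 1, 2 and 3 and liraglutide 2 were again high, and they were the 4 highest tumors for 16 of the 20 mitosis genes (80%), for 12 of the 28 other replication factors (42.9%) and for 5 of the 25 RB, cyclin D and CDK genes (20%). The overlap of these lists with the 51 genes in the tumors they follow is a description over the same 10 samples.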

How the data were processed

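The authors sequenced ribosome-depleted RNA in pairs, left out samples at quality assessment, mapped reads to GRCm39 with Bowtie and TopHat and deposited featureCounts counts per gene without normalization. The labels' processing notes name mm10 and GRCh38 instead. The annotation release, strand setting and treatment of reads with several places are not given in the sources used here. Of the 55401 identifiers, 93.38% matched GENCODE M39 (98.31% of counts), which gave symbols and exon lengths, and 35 had the same version there, so lengths and overlaps may differ from the authors' models.

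Genes were filtered (filterByExpr, 17464 kept), scaled by TMM (factors 0.951 to 1.05) and tested with edgeR 4.0.16 in R 4.3.3 by the quasi-likelihood test with treatment as the only factor, adjusted over all genes (Benjamini-Hochberg). The study's methods used DESeq2 (version 1.42.0 here), which was an alternative beside limma-voom (limma 3.58.1), other scalings and filters, robust empirical Bayes, the tumor number as a block and each tumor left out. Log2 CPM used a prior count of 2. Single genes were also compared by two-sided exact permutation tests. The scripts were checked on simulated data. Total counts were 9927942 to 14480593 with vehicle and 10336934 to 13105261 with liraglutide. Nothing says whether p-values cover more than the spread between these tumors.

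The members and lists were chosen with earlier results of these data known. Values per tumor are given for members called or not overlapping, and for the member of each step with the smallest p and the highest level per length (2 genes of smallest p in the other lists). Pole2, Eif4a2 and Ints8 and the members singled out for one tumor were chosen after their values were seen. The symbol Ctps of the nucleotide list was not matched.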

Additional observations from a re-analysis of the deposited data

Results flagged for a closer look

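Each member was examined in each group for a tumor far from the other 4 (gap to the nearest over the range above 0.71, Dixon's 95% critical value), which made 102 groups, and 13 had one (12.7%, against 6.78% of the groups of all tested genes). Chance flags about 1 in 20 of independent groups, but these share the same tumors and the members move together, so the 13 are not independent. In liraglutide tumor 2, the value stood above those of the other liraglutide tumors for 10 members. These were Mcm5 (52.4 CPM, others 31.8 to 36.6), Cdc45 (26.1 CPM, others 12.3 to 16.1), Pola1 (112 CPM, others 52.3 to 68.7), Prim1 (18.5 CPM, others 12.8 to 14.4) and Pold1 (29.9 CPM, others 21.9 to 24.0). They also included Pole2 (13.2 CPM, others 4.55 to 7.0), Rpa2 (15.3 CPM, others 10.2 to 11.4), Slbp (47.4 CPM, others 32.3 to 36.2), E2f1 (22.5 CPM, others 13.4 to 15.5) and E2f8 (84.3 CPM, others 25.1 to 37.6). Vehicle tumor 4 stood below the other vehicle tumors for Clspn (11.7 CPM, others 26.1 to 30.3) and Asf1b (6.02 CPM, others 13 to 15.5). Vehicle tumor 5 stood above them for E2f2 (36.3 CPM, others 7.39 to 10.5).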

How the results depend on the processing

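No member was called in any of the 20 alternative fits, and the lowest adjusted p of a member was 0.0614 (Rfc4, DESeq2). DESeq2 called 21 genes of the whole table, against 0 by edgeR and limma-voom, and the cause was not tested. With library size alone, which moved the median log2 fold change of all genes to 0.04, there were 2 members at an unadjusted p under 0.05, against 4, and of all genes at that p 619 were lower and 990 higher, against 981 and 694. With one tumor left out there were 2 to 15. The log2 fold change of Mcm6 then ranged from -0.17 to 0.01, the latter without vehicle tumor 3. Other settings gave 46 to 48 members below 0 and a median of -0.21 to -0.15. Tumors with the same number do not pair by the labels, and only 3 of 5 such pairs had deviations correlated over 0.1 (-0.0753 to 0.565), with 3 of 10 tumors closest to their own number. With the tumor number as a block there were 10 members at an unadjusted p under 0.05 (19.6%, all lower, where 7.31% of all genes were lower) and 0 called. Fen1 had 3 to 21 counts per tumor, and the lowest count of any other member was 18.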
